A study of Caenorhabditis elegans with 2 samples.

Results

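Strong autosomal peaks in divergent promoters were the 269 peaks, of 30000 in the pooled list, that ranked 1 to 3000 by the deposited peak signal, lay off the X chromosome, and had their summit in the promoter windows of protein-coding genes on both strands. Windows reached 1000 bp before and 500 bp past a transcript start of the Ensembl WBcel235 annotation, the same assembly as the ce11 coordinates of the lists. The strong peaks numbered 3000, of which 2563 were autosomal. Another 905 strong autosomal peaks lay in windows of genes on 1 strand only (one-directional), 1389 lay in no window, and 881 autosomal peaks past rank 3000 met the same divergent position rule (weaker divergent).

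The peaks came from chromatin immunoprecipitation with sequencing (ChIP-seq) of EFL-3 in whole Caenorhabditis elegans L1 larvae of mixed sex. The larvae, of strain OP344, carried unc-119(tm4063) and the transgene wgIs344, in which F49E12.6 (the efl-3 gene) is fused to TY1, EGFP and 3xFLAG at its C-terminus and which also holds unc-119(+). They were bleached, starved and taken at an age of 6 hours, and an antibody to GFP pulled down the tagged protein. There was 1 group with 2 biological replicates, no mutant, no treatment and no second stage, so no condition is compared here, and the peaks report on a tagged transgene product in a whole animal. For each peak the lists gave its place, its summit, a signal in the units of the authors' peak caller, and a q-value.

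E2F proteins bind DNA through a winged-helix domain and, with their DP partners and retinoblastoma-family proteins, set the timing of genes for replication and division. EFL-3 belongs to the atypical E2Fs, relatives of mammalian E2F7 and E2F8, which carry a pair of DNA-binding domains, need no DP partner and are known mainly as repressors. The worm genome is compact, and many neighbouring genes lie head to head on opposite strands, so that 1 short stretch between their starts serves both promoters. Such a divergent promoter cannot be given to either gene from the peak alone.

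A set of 7 windows, of the summit and 100 bp on each side, read from the forward strand of ce11 (WBcel235, RefSeq sequence), shows what the strongest of these regions look like. They are the 3 strongest, the 3 strongest with an E2F consensus, and the 2 strongest whose genes on both strands are in the gene lists below, leaving out 1 chromosome, with the hsp-60 window counting under both of the first headings. Capitals mark matches to the E2F consensus on either strand, and windows wholly in lower case held none. The first gene of each name is on the reverse strand and the second on the forward strand.
rpl-20/Y17G9B.5 (chrIV:4749986-4750186): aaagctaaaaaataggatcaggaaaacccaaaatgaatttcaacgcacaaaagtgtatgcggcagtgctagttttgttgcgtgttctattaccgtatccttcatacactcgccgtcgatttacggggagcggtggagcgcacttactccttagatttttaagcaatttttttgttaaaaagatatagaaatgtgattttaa
Y22D7AL.10/hsp-60 (chrIII:1619032-1619232): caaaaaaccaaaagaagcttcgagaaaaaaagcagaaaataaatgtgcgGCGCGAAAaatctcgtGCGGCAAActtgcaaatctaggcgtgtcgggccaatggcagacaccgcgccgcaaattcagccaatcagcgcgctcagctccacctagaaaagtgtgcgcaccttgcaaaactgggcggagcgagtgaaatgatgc
cux-7/C07H6.2 (chrIII:7520726-7520926): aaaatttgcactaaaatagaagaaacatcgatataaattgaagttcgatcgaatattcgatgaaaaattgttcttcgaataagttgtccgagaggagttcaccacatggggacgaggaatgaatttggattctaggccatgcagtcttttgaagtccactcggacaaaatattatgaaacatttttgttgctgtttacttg
cct-8/Y55F3AR.2 (chrIV:1094236-1094436): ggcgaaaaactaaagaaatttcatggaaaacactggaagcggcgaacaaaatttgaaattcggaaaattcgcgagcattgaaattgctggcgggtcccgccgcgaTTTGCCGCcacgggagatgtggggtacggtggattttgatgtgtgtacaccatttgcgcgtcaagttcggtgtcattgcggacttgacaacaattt
lron-10/hpr-9 (chrIII:10621332-10621532): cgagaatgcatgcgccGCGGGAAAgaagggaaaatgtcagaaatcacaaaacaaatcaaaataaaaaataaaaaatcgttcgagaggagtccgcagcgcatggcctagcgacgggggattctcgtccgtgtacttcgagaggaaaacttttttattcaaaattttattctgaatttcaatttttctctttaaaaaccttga
his-31/his-32 (chrIV:8334020-8334220): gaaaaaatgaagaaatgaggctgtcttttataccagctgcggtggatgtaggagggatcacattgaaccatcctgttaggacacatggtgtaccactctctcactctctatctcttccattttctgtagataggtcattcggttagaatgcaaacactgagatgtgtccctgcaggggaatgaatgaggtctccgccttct
his-60/his-59 (chrIV:7488010-7488210): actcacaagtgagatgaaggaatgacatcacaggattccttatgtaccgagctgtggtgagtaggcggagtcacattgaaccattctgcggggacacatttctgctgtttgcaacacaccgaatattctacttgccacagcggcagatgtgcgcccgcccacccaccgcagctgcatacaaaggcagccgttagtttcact

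The hsp-60 window held 2 consensus matches, both on the reverse strand, at 47 and 31 bp to the left of the summit. The cct-8 window held 1, on the forward strand at 9 bp from the summit. The rpl-20 and cux-7 windows, which ranked 14 and 20, held none.

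The deposited signals of the members ran from 60.0 to 509, with a median of 77.7 and quartiles of 66.9 and 114. The members were chosen by this pooled signal and by position, so the values describe the selection. The strongest peak of the whole pooled list was a member, between F56G4.6 and wbp-4, with a signal of 509 in the pooled list, 297 in replicate 1 and 208 in replicate 2. The next was between the histone genes his-67 and his-68, with 393 in the pooled list, 204 in replicate 1 and 184 in replicate 2. Both ranked among the 8 strongest peaks of each replicate.

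The peak between rpl-20, for a large ribosomal subunit protein, and Y17G9B.5 had a pooled signal of 343, with 189 in replicate 1 and 155 in replicate 2. The peak at hsp-60, the mitochondrial chaperonin, had 333, with 185 in replicate 1 and 149 in replicate 2. The peak at cux-7 and C07H6.2, which also lay in the window of lig-4, the DNA ligase of end joining, had 304, with 177 in replicate 1 and 130 in replicate 2. In all 3 the replicate 1 signal was the higher.

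The peak between nhl-2, a TRIM-NHL protein that acts with microRNAs, and tag-340 had 283, and its summit lay within 200 bp of a noncoding RNA gene. The peak between F10E9.7 and F10E9.5 had 260. The peak between gmps-1, GMP synthetase, and cap-2, a subunit of the actin capping protein, had 253.5. The peak at hsp-90, the cytosolic chaperone, and C47E8.4 had 253.

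The peak at cct-8, a subunit of the cytosolic chaperonin, had 238, with the higher value in replicate 2, at 123 against 118 in replicate 1. The peak between ndk-1, a nucleoside diphosphate kinase, and F25H2.6 had 237. The peak between ifet-1, which binds the cap-binding protein eIF4E, and rps-1, of the small ribosomal subunit, had 222. The F25H9.6 and F25H9.7 peak had 220, and the starts of these genes were only 15 bp apart, the least among the head-to-head members.

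The peak between drr-2 and set-16, an MLL-type histone H3 lysine 4 methyltransferase, had 216, and the peak between rpl-15 and K11H12.8 had 215. All 15 of these peaks ranked 1 to 430 in both replicates, 430 being the size of the authors' reproducible set. Cytosolic ribosomal, chaperone and histone genes thus stood at 7 of these 15 regions, a count that rests on a list of peaks ordered by the value that chose them. Counted by gene, the 3 lists had 19, 10 and 18 of the 541 genes with a member in their window. They made up 80, 65 and 47 of all 17138 autosomal protein-coding genes.

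Of the 269 members, 231 (85.9%, 95% Wilson interval 81.2 to 89.5) had a summit within 100 bp in both replicate lists, against 24.8% of all pooled peaks. Other strong autosomal peaks came close, with 79.2% of one-directional ones and 75.7% of those in no promoter window. A summit was present in replicate 1 for 251 members and in replicate 2 for 249, and no member was missing from both. The pooled list was made from the same reads, so the agreement of the replicates is not independent of the selection. All intervals on shares cover counting error over peaks only, since peaks of 1 sample are not replicates.

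A stricter reading gave lower shares. A matched summit that ranked 1 to 3000 in both replicates was found for 119 members (44.2%, 38.4 to 50.2), against 23.9% of one-directional strong peaks and 2.22% of all pooled peaks. For 72 members it ranked so in replicate 1 only, for 45 in replicate 2 only, and for 33 in neither. Applied to the replicate lists on their own, the same rule gave 270 peaks in replicate 1, of which 191 matched members (71.0% of members and 70.7% of the replicate 1 peaks), and 231 peaks in replicate 2, of which 163 matched (60.6% of members and 70.6% of the replicate 2 peaks).

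The signals of matched members had a median of 46.4 in replicate 1 (19.0 to 297) and 39.3 in replicate 2 (18.8 to 208). Spearman's rho between the replicates was 0.572 over the 231 matched members, which share a control alignment and were ranked on both replicates together. The stronger members by rank were matched in both replicates more often than the weaker ones, 130 of 135 (96.3%) against 101 of 134 (75.4%).

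**Figure D1:**
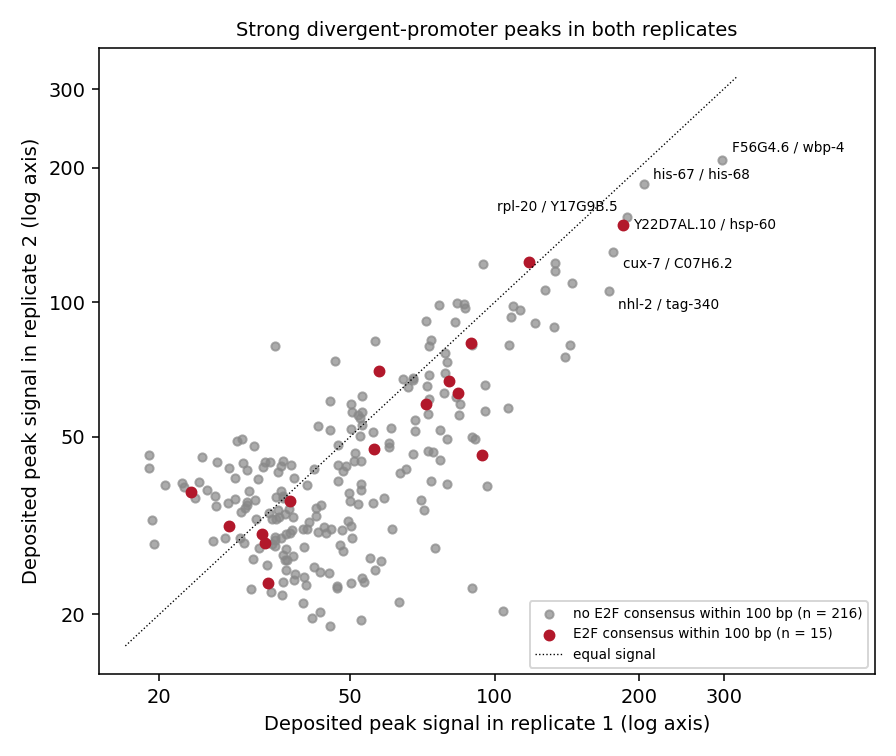
Deposited signal of the 231 members with a summit in both replicates, replicate 1 on the horizontal axis and replicate 2 on the vertical axis, both logarithmic. Each point is 1 peak, red points hold the E2F consensus, the dotted line marks equal signal, and the 6 strongest peaks are named. The strongest peaks lie near each other at the upper right, while the points below about 50 in both replicates scatter widely.

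Some members rested largely on 1 replicate. The member at spe-48 and Y51F10.11 ranked 154 in replicate 2 and had no summit within 100 bp in replicate 1. The sws-1 and mrps-35 promoter held 2 members, of which one ranked 424 in replicate 2 with no match in replicate 1, and the other ranked 295 in replicate 1 and 20373 in replicate 2. A member between a pair of uncharacterised Y105C5A genes ranked 82 in replicate 1 and 22756 in replicate 2, and the member at teg-1 and mcm-10 ranked 121 in replicate 1 and 16255 in replicate 2. These are the 5 members among the 430 strongest of one replicate with the worst place in the other.

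The authors' reproducible set held 430 peaks, 1.43% of the pooled list, and 97 of them (22.6%) were members. Those 97 were 36.1% of the members (30.6 to 42). They were the 97 members that ranked 1 to 430 in the pooled list, so among members the set followed the pooled signal. It included the members at spe-48 and at teg-1, which rested largely on 1 replicate. Members made up 25 of the 100 strongest pooled peaks (25%), 147 of the 1000 strongest (14.7%) and 269 of the 3000 strongest. A deposited q-value under 0.05 was carried by 66 members (24.5%), and every one of the 15 strongest had the same deposited value, 1.94 on the −log10 scale. The −log10 values fell broadly with the pooled signal, so this count follows the value that chose the members. The share over all pooled peaks was not counted.

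The members at the edge of the rule were alike in signal on both sides. The last ones inside were at K04C2.2 and brd-1, rank 2976 with a signal of 60.04, and at T10B5.3 and knl-3, rank 3000 with 59.98. The first ones outside that met the position rule were at lid-1 and mrpl-34, rank 3009 with 59.95, and at T23F6.3 and rbd-1, rank 3059 with 59.75.

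Nearly all members, 266 of 269, lay between or beside genes arranged head to head, by the transcript start of each gene nearest to the summit. At the other 3 (sws-1 and mrps-35, rpb-7 and Y54E10BR.2, T10B5.3 and knl-3) the 5′ ends so taken overlapped, by 3 to 569 bp. The arrangement can change with the summit, since another member at sws-1 and mrps-35 and another at T10B5.3 and knl-3 were head to head. The median distance between the starts was 476 bp, with quartiles of 285 and 740 and a range of 15 to 1680 bp. Of the summits, 183 (68%, 62.2 to 73.3) lay between the starts. The windows reached farther upstream than downstream, so the rule itself favoured this place. With starts over 1000 bp apart it allowed no other, and in the widest spaces it kept summits near the middle. The same share was not counted in weaker divergent peaks. Those 183 lay at a median of 87.0 bp from the midpoint of the space, and 115 of them (62.8%) were in its central 50%.

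Neither strand was favoured: 131 of 269 summits (48.7%, 42.8 to 54.6) were nearer to the forward-strand start. The nearest start of either strand was at a median of 159 bp, against 191 bp for weaker divergent peaks, which met the same position rule. The windows held 2 genes at 242 members, 3 genes at 26 and 4 genes at 1, which came to 541 distinct genes, 3.16% of the 17138 autosomal protein-coding genes. The nearest pairs numbered 259, and 10 of these had more than 1 member, so members are not all separate promoters.

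By the annotation, 162 summits (60.2%) lay between genes, 58 (21.6%) in coding exons, 25 (9.29%) in introns and 24 (8.92%) in untranslated exon parts. A place between genes was 25.60 percentage points more frequent than in weaker divergent peaks, which met the same position rule and of which 34.6% lay between genes (95% Newcombe interval of the difference 18.84 to 32.05). Within the members, 113 of 135 stronger ones (83.7%) had their summit between the starts, against 70 of 134 weaker ones (52.2%).

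**Figure D2:**
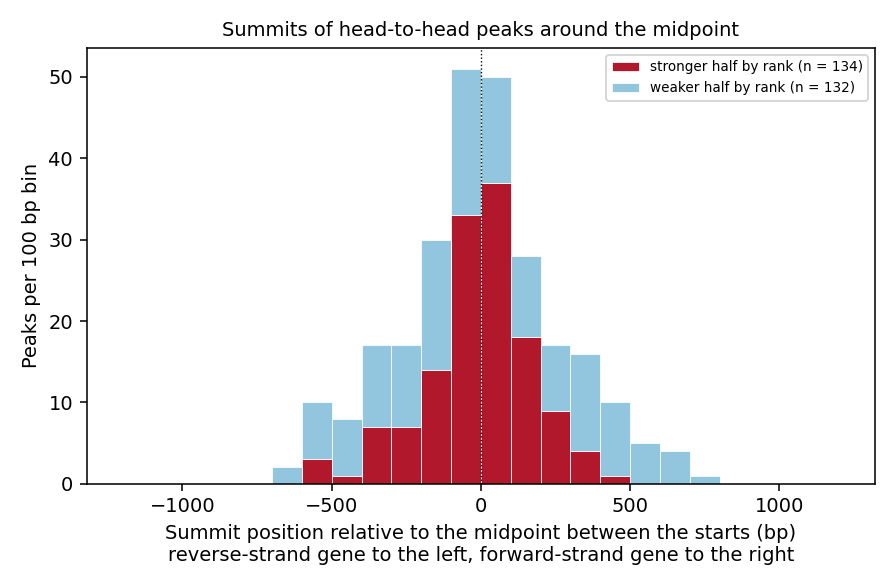
Position of the summit relative to the midpoint between the starts for the 266 head-to-head members, in bins of 100 bp, with the gene on the reverse strand to the left and the gene on the forward strand to the right. Bars are stacked, the stronger members by rank in red and the weaker in blue. The peaks pile up on either side of the midpoint, and the weaker members reach farther out.

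Seen from the genes, 215 of 1665 autosomal divergent pairs (12.9%, 11.4 to 14.6), taken as neighbouring starts pointing apart with at most 1000 bp between them, held a member between their starts. Any pooled peak was found in 737 pairs (44.3%). Pairs with a member had a median of 411 bp between the starts, and pairs without one 486 bp. The share was 15.7% (71 of 451) where the starts were over 200 and up to 400 bp apart and 8.24% (21 of 255) at 801 to 1000 bp.

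The chromosomes differed in the share of pairs with a member. On chromosome III it was 18.6% (54 of 290 pairs, 14.6 to 23.5), and on the other autosomes it ran between 10.4% (chromosome V, 44 of 423) and 14.4% (chromosome I, 46 of 320). On the X chromosome, which the rule left out, 8 of 80 pairs held a strong peak (10%, 5.15 to 18.5). Members numbered 70 on III, 59 on V, 55 on I, 43 on IV and 42 on II.

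**Figure D3:**
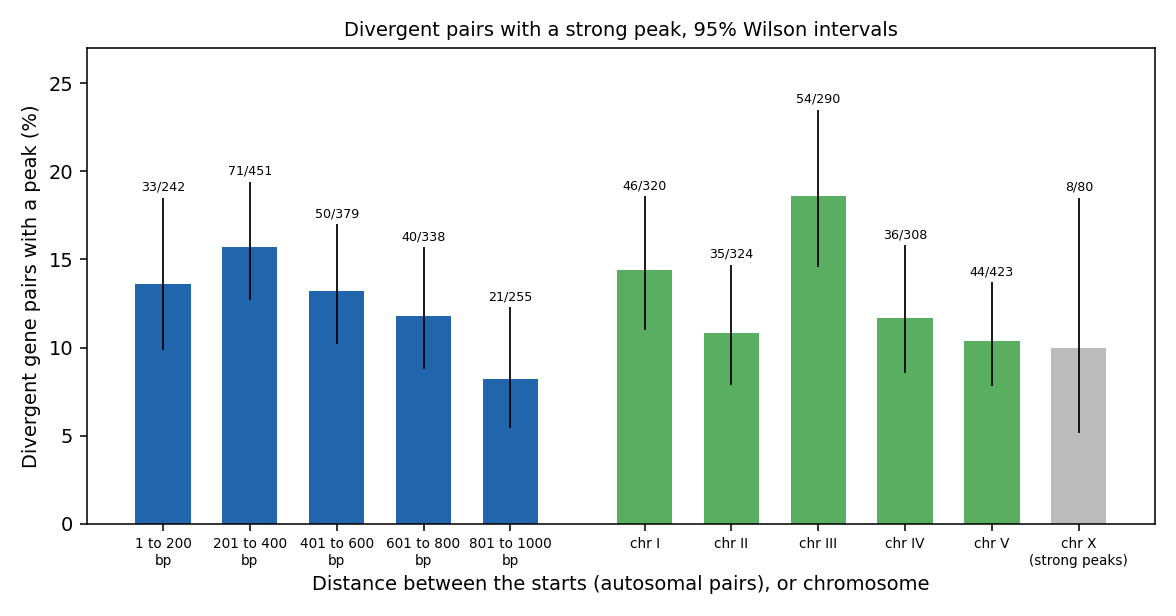
Share of divergent gene pairs with a strong peak between their starts, by the distance between the starts (blue, autosomal pairs), by autosome (green) and on the X chromosome (grey). Bars start at 0, error bars are 95% Wilson intervals, and the numbers above are pairs with a peak over all pairs. The share falls to 8.24% in the widest pairs and reaches 18.6% on chromosome III.

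The 24 gene lists held 2836 autosomal genes, of which 144 had a member in their window, and 124 members had at least 1 listed gene. Each share is set beside 3.16% of all autosomal protein-coding genes and, among genes in divergent pairs, 433 of 3297 (13.1%), because a list rich in divergent pairs has more chances. A peak in a divergent promoter is counted for both genes, and the lists were not tested.

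Genes of protein synthesis were frequent at these promoters. Of 80 cytosolic ribosomal protein genes, 19 (23.8%) had a member, and of the 48 in divergent pairs 19 had one (39.6%). After rpl-20, rps-1 and rpl-15 came rps-19, which shares its promoter with hsr-9, with a signal of 145, 78.5 in replicate 1 and 62.5 in replicate 2. Translation factors and tRNA synthetases had a member at 11 of 66 genes (16.7%), or 10 of 33 in divergent pairs (30.3%).

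Of these, iff-2, the eIF5A gene, had 173, with 89.7 in replicate 1 and 80 in replicate 2, and ears-2, a glutamyl-tRNA synthetase, had 170, with 76.7 in replicate 1 and 98.8 in replicate 2. The elongation factor genes eef-2, beside clsp-1 (claspin), and eef-1A.1, beside rfc-4, had 144 and 114. Mitochondrial ribosomal proteins had a member at 5 of 66 genes (7.58%), or 4 of 23 in divergent pairs (17.4%). Their highest was mrpl-12 at 124.

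Chaperone genes had a member at 10 of 65 (15.4%), with the highest median signal among lists with more than 5 such genes, 154, against 78.0 over all genes with a member. After hsp-60, hsp-90 and cct-8 came cct-1, the chaperonin subunit that shares its promoter with mig-5, a Dishevelled protein of Wnt signalling. It had 186, with 86.7 in replicate 1 and 97.2 in replicate 2. The proteasome list had a member at 3 of 33 genes (9.09%), rpn-3, pas-3 and pbs-1. Among its genes in divergent pairs it was 3 of 20, near the 13.1% of all such genes. Of the 3, rpn-3 lies head to head with hsp-110 and shared a peak of 150, while the pas-3 peak had no summit within 100 bp in replicate 1.

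Counted over all genes of a list, histones had the highest share, 18 of 47 (38.3%). Of the 39 histone genes in divergent pairs 18 had a member (46.2%), a share exceeded by the 3 of 4 pair genes of the Rb, E2F and DREAM list. The worm's core histone genes come in near-identical copies, often arranged head to head in clusters, so reads from copies could be split between them. The windows themselves were largely unique: the share of their 50-base words found elsewhere in the genome was 2.63% at his-6 and his-5, 6.58% at his-2 and his-1, and 0 at the other histone members.

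The histone members were 10 in all, and their signals spread widely. The his-31 and his-32 promoter had 196.5, with 109 in replicate 1 and 98.3 in replicate 2. The his-60 and his-59 promoter had 153 and the his-4 and his-3 promoter 137, both higher in replicate 2, and at the low end the his-2 and his-1 promoter had 68.5, with 28.7 in replicate 1 and 40.3 in replicate 2. The histone variant gene htz-1 (H2A.Z), beside wapl-1, a cohesin release factor, had 121, with 46.4 in replicate 1 and 73.8 in replicate 2.

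Genes of the cell cycle, the field in which E2F proteins are best known, had moderate shares. Replication and nucleotide genes had a member at 6 of 47 (12.8%), or 5 of 23 in divergent pairs (21.7%). The 6 were tim-1 (a replication fork and cohesion factor, 157), rfc-4 (clamp loader, 114), mcm-10 (111), cdc-6 (origin licensing, 89.8), pola-1 (polymerase alpha, 87.3) and ctf-4 (82.4). The tim-1 promoter had a further member of 103, and the mcm-10 peak, as given above, rested on replicate 1.

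Of 20 genes of the Rb, E2F and DREAM list, 3 had a member, all in divergent pairs, of which the list has only 4. They were lin-35, the worm retinoblastoma-family protein, at 148 (90.9 in replicate 1 and 49.3 in replicate 2), lin-53, a histone-binding RbAp48 protein, at 145 (83.8 and 62.7), and lin-54, the DNA-binding DREAM subunit, at 135 (94.2 and 45.4). All 3 were higher in replicate 1. The neighbours across the promoter were vps-51, nra-2 and rpl-12.

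Cyclin, kinase, checkpoint and mitosis genes had a member at 7 of 66 (10.6%), or 5 of 23 in divergent pairs (21.7%). The highest were spd-5 (a centrosome scaffold, 107), hcp-6 (a condensin subunit, 103), emb-1 (88.3) and mdf-1 (spindle checkpoint, 73.6). DNA damage genes had one at 7 of 50 (14%), or 6 of 22 in divergent pairs (27.3%). Here lig-4 (304) and hpr-9, of the 9-1-1 checkpoint clamp (172), were far above dog-1 (72.4) and polh-1 (64.1). For lig-4 the peak lay nearer to cux-7 and C07H6.2 than to the gene itself.

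Genes of transcription and RNA processing followed. RNA polymerase II, TFIID and Mediator genes had a member at 10 of 66 (15.2%), or 5 of 15 in divergent pairs (33.3%). The highest were the Mediator genes mdt-26 (164) and mdt-22 (104), then taf-4 (90.2) and mdt-18 (79.8). Chromatin modifier genes had one at 7 of 88 (7.95%), or 6 of 22 in divergent pairs (27.3%). Among them were set-16 (216), ash-2, of the H3 lysine 4 methyltransferase complex (124), hda-11 (118) and jmjd-1.2, a histone demethylase (101). Splicing genes had one at 9 of 87 (10.3%), or 8 of 38 in divergent pairs (21.1%). Of the splicing genes, teg-1 (111), prp-19 (88.3), rnp-2 (74.3) and cyn-4 (70.5) were the highest.

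Secretory and vesicle genes had a member at 8 of 86 (9.30%), with syx-5, a Golgi syntaxin, at 191, vps-51 at 148, sec-61.A, the translocon channel, at 110 and vps-32.1 at 78.2. Respiratory chain and ATP synthase genes had one at 8 of 54 (14.8%), or 6 of 25 in divergent pairs (24.0%). The highest were atp-1 at 108, nduf-2.2 at 95.1, mev-1, of complex II, at 83.1 and cox-5B at 76.7. Nuclear pore genes had one at 4 of 43 (9.30%), npp-6 (107), npp-9 (73.6), npp-7 (61.8) and npp-20 (61.2). For those in divergent pairs it was 3 of 23 (13.0%), near the 13.1% of all such genes. The npp-7 and npp-20 peaks had no summit within 100 bp in replicate 1.

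Other lists had few genes with a member, and some of them few genes in divergent pairs. Ubiquitin conjugation had 1 of 63 genes, and 1 of 21 in divergent pairs (4.76%), ubq-2 (94.6), whose product is a ubiquitin fused to a ribosomal protein. Chemoreceptors had 4 of 1207 (0.331%), sri-5 (115), srh-16 (112), sre-1 (64.3) and sri-67 (61), and nuclear hormone receptors 2 of 247 (0.810%), nhr-47 (129) and nhr-80 (66.9). For the receptors that was 2 of the 18 in divergent pairs (11.1%), near the 13.1% of all such genes, while for chemoreceptors it was 3 of 125 (2.40%). Cuticle collagens had 1 of 146, col-71 (71.7), and neuropeptides 1 of 107, nlp-33 (62.0), or 1 of 20 and 1 of 9 of their genes in divergent pairs (5.00% and 11.1%).

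No homeobox gene (of 65), autophagy and starvation gene (of 30) or mitochondrial import gene (of 13) had a member. These lists have few divergent pair genes, at 4, 3 and 1, so the rule gave them little chance. One-directional strong peaks were found at 6, 7 and 2 of their genes.

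**Figure D4:**
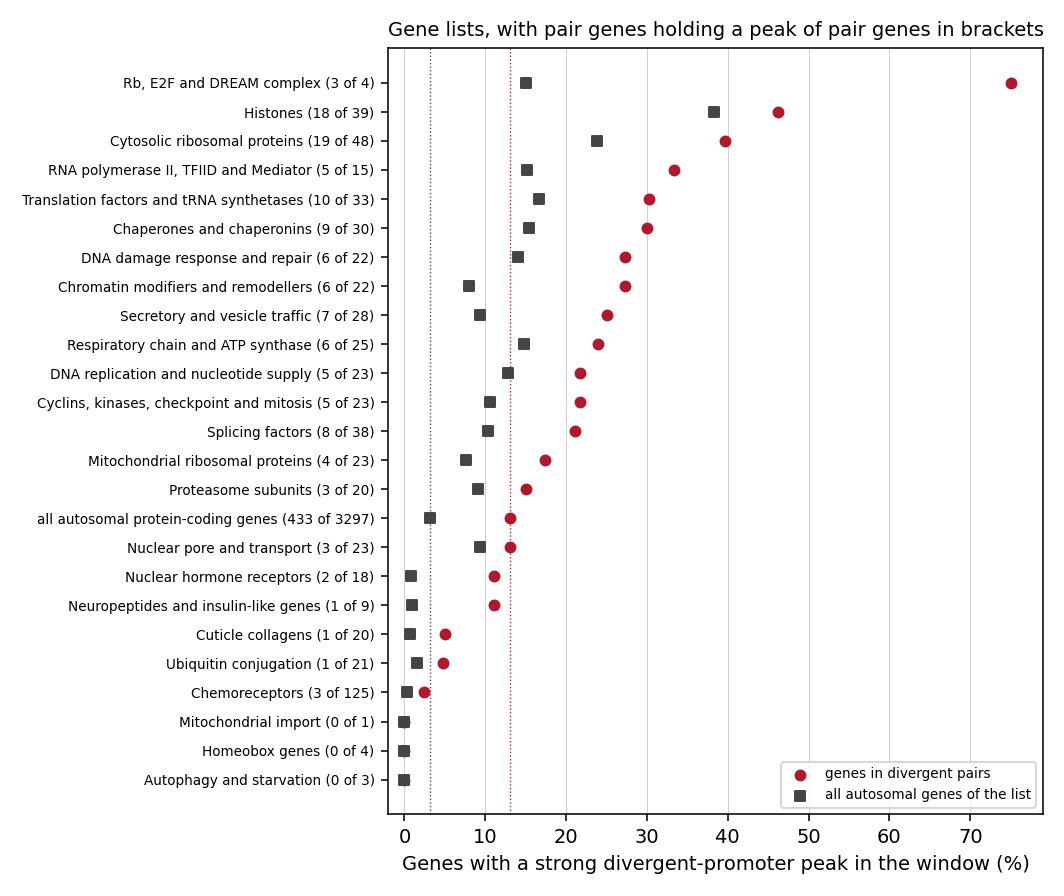
Share of the genes of each list with a member in the promoter window, for all autosomal genes of the list (dark squares) and for those in divergent pairs (red circles). Names give pair genes with a member of pair genes, dotted lines mark all autosomal protein-coding genes, and the horizontal axis is in percent. Histones and cytosolic ribosomal proteins stand to the right on both scales, and chemoreceptors to the left.

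At 29 members, listed genes stood on both strands. Of these, 8 were pairs of core histone genes. The strongest of the others were hsp-110 and rpn-3 (150), vps-51 and lin-35 (148), rpl-12 and lin-54 (135), dnj-19 and nhr-47 (129), eef-1A.1 and rfc-4 (114), and teg-1 and mcm-10 (111). Further ones were sec-61.A and rps-18 (110), spd-5 and npp-6 (107), prp-19 and emb-1 (88.3), jmjd-4 and mev-1 (83.1), ctf-4 and eef-1G (82.4 and, at a second summit, 79.6), and rpl-7A and set-21 (76.8). Which gene of a pair, or whether either, responds to EFL-3 was not measured.

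The E2F consensus, searched as TTTCCCGC, TTTCGCGC, TTTGCCGC or TTTGGCGC on both strands within 100 bp of the summit, occurred at 18 of 269 members (6.69%, 4.27 to 10.3), against 4.15% of all pooled peaks. It occurred at 46 of 905 one-directional strong peaks (5.08%), a difference of 1.61 percentage points with an interval of -1.31 to 5.45, and at 33 of 881 weaker divergent peaks (3.75%), a difference of 2.95 points with an interval of 0.12 to 6.74. With only ranks 1 to 1500 the second difference was 1.29 points (-1.60 to 5.78), and 0 lay inside the interval in every other setting tried. Reordered versions of the same letters occurred at 14 members (5.20%) and at 6 members (2.23%), against 1.85% and 1.99% of all pooled peaks. Against weaker divergent peaks the first reordering differed by 2.82 points (0.40 to 6.26), about as much as the consensus. The interval of the first reordering, 3.13 to 8.55, overlapped that of the consensus.

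The 19 matches lay at a median of 56.0 bp from the summit, and 9 lay within 50 bp. The share was 6.67% in the stronger members by rank and 6.72% in the weaker. The 5 strongest members with a match were those at hsp-60, cct-8, hpr-9, lin-53 and eef-2, with pooled signals of 333, 238, 172, 145 and 144. Each other member with a match held 1. From the strongest down, these began with rpl-12/lin-54, hat-1/M03C11.3, F01F1.11/F01F1.3, nep-26/mdt-22, erfa-3/math-33, attf-2/F09G2.2 and simr-1/C06A5.3. After them came B0495.9/sre-1, mre-11/wdr-5.3, csn-1/phf-14, hpr-17/F32A11.1, B0524.5/B0524.2 and clec-260/sri-67.

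Other short sequences, of which none contains another, were counted in the same windows. The GAGA repeat (GAGAGA) stood at 23.8% of members, 22.2% of one-directional strong peaks, 12.8% of weaker divergent peaks and 14.1% of all pooled peaks. The SP1-like word CCGCCC stood at 11.5% of members, against 9.94%, 5.33% and 5.47% in those sets. The GATA site TGATAA ran the other way, at 7.81% of members, against 12.3%, 17.6% and 14.8%.

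Against weaker divergent peaks, the difference was 10.97 points for the GAGA repeat (5.70 to 16.77), 6.19 for the SP1-like word (2.50 to 10.75) and -9.79 for the GATA site (-13.53 to -5.28). The splice-acceptor-like word TTTCAG was lower in members than in weaker divergent peaks, at 30.5% against 39.6% (-9.13 points, -15.27 to -2.57). Members were near all pooled peaks, at 31.8%. One-directional strong peaks stood at 26.1%, a difference of 4.41 points with an interval of -1.57 to 10.78. Against one-directional strong peaks, the difference for the GATA site was -4.46 points (-7.96 to -0.15). TTTGAA or TTTAAA, taken for the CHR element, stood at 54.3% of members against 46.1% of one-directional strong peaks (8.20 points, 1.40 to 14.88). Weaker divergent peaks were closer, at 51.3% (2.97 points, -3.85 to 9.69), and all pooled peaks stood at 47.1%. For the E-box (CACGTG) and the TATA box (TATAAA) the intervals of both differences included 0.

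The base composition differed too. Median GC content within 100 bp of the summit was 40.8% in members (quartiles 36.8 and 46.3), 42.3% in one-directional strong peaks, 38.8% in weaker divergent peaks and 40.3% in all pooled peaks. The part of composition in these word shares was not tested.

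**Figure D5:**
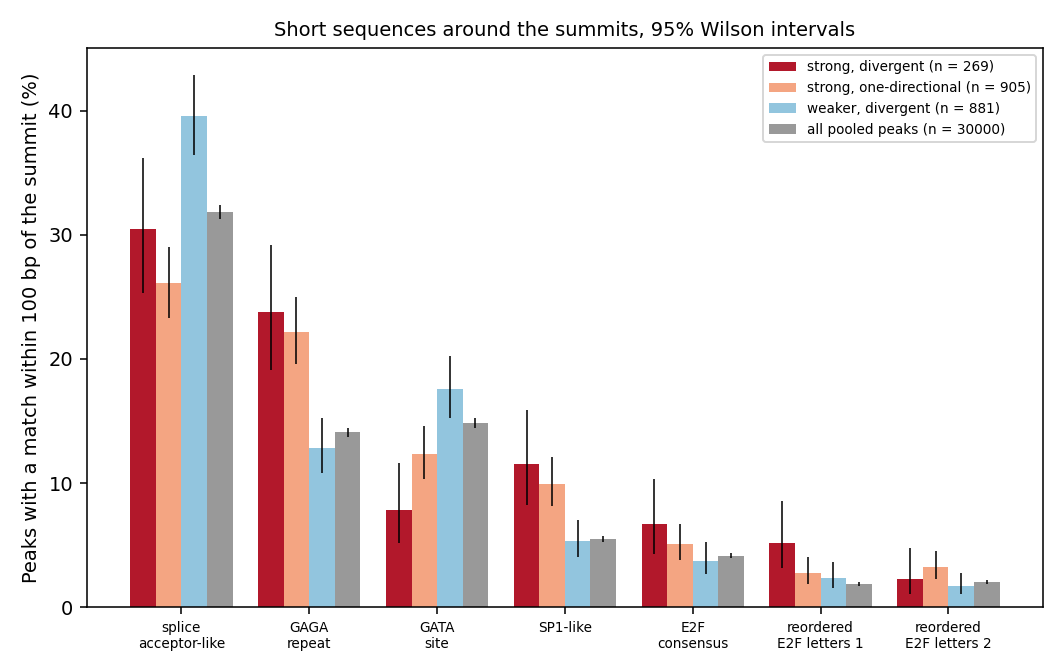
Share of peaks with a match within 100 bp of the summit, for members (red), one-directional strong peaks (orange), weaker divergent peaks (blue) and all pooled peaks (grey). Bars start at 0 and error bars are 95% Wilson intervals. The strong sets stand above the weaker ones for the GAGA repeat and the SP1-like word and below them for the GATA site, while the intervals overlap for the E2F consensus.

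Noncoding RNA genes lay within 200 bp of 35 member summits (13.0%, 9.51 to 17.6), against 7.70% of all pooled peaks. In one-directional strong peaks the share was 13.9%, a difference of -0.91 points with an interval of -5.16 to 4.10, and in weaker divergent peaks 4.88%, a difference of 8.13 points (4.27 to 12.84). Most, 29, were of the class annotated as ncRNA, with 5 near snoRNA, 4 near tRNA, 2 near snRNA and 2 near microRNA genes. Some lay near more than 1 kind.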

How the data were processed

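Anti-GFP ChIP-seq was measured in 2 biological replicates of 1 group. The authors deposited 1 peak list per replicate, 1 pooled list and 1 reproducible set, all called against the same control alignment, per the file headers and notes. Signal (column 7) is the authors' deposited peak value, and −log10 q-values are as the authors deposited them. For the aligner, caller, settings and reproducibility threshold, each is not given in the sources used here. Hence sequencing depth is unknown and limits the precision of each signal. The control library was not analysed here. Nothing was renormalized.

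Peaks were ranked by signal and placed against protein-coding transcript starts of Ensembl release 115 (WBcel235). Sequences within 100 bp of summits came from the RefSeq copy of that assembly. Replicate summits were matched within 100 bp. Shares have 95% Wilson intervals and differences 95% Newcombe intervals, over peaks. With 1 group, no condition was tested. Python 3.11.15, numpy 2.4.6, pandas 2.3.3 and scipy 1.17.1 were used, and the placing, matching and word search were tested on simulated data.

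Members, 24 gene lists and 10 motifs were chosen with earlier results of these data known; 8 unc genes wrongly taken into the homeobox list, 1 of them with a member, were removed after values were seen. Named were the 15 strongest members, the 4 highest per list, members with listed genes on both strands (up to 20), the 2 weakest members and the 2 strongest outside, the 5 strongest with the E2F consensus and the 5 most discordant between replicates. Genes named beyond these were chosen after their values were seen.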

Additional observations from a re-analysis of the deposited data

How the results depend on the processing

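The member count, 269, was 97 in the authors' reproducible set, where the members were those ranked 1 to 430 by pooled signal. It was 142 with a window of 500 bp upstream to 200 bp downstream. With 1 replicate's list alone it ran from 231 to 270. The share with a summit in both replicates, 85.9%, was 66.5% within 50 bp, 93.3% within 200 bp, 93.9% for ranks 1 to 1500 and 44.2% with replicate peaks ranked 1 to 3000 only. The share with the summit between the starts was 62.1% with 1 start per gene model and 77.9% for ranks 1 to 1500. The E2F consensus stood at 2.60% of members within 50 bp. Its excess over weaker divergent peaks, 2.95 points, was 0.33 to 3.22 points in the other settings, with 0 inside each interval, and its difference from one-directional strong peaks was -0.14 to 0.64 points. Divergent pairs with a member were 15.1% at most 500 bp apart and 10.1% at most 2000 bp apart, and 10.9% to 12.8% with 1 replicate left out, lowest without replicate 1. Median GC was 44.6% within 50 bp and 39.2% within 150 bp. Listed genes with a member were 70 when only the nearest start was counted, against 144. Counting the nearest start only, a narrower window and a smaller matching distance can by definition only lower a count or share. The same holds for a shorter stretch searched for the consensus, a rank limit on replicate peaks and the reproducible set. A larger matching distance can only raise the share. The cause of the other shifts was not tested. No paired analysis was possible because there is 1 group. Depth was not given, so weak peaks carry an unknown error.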

Other observations

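All words of 6, 7 and 8 bases were also counted within 100 bp of the summits, 20843 distinct words of 8 bases among them, after the planned motifs had been counted. Ordered by the share in members minus that in weaker divergent peaks, words of A and T came first (AAAAATAA at 21.6% against 11.7%), and the first word with a C or G was ACTCCTCT. It stood at 22 members (8.18%), 26 one-directional strong peaks (2.87%), 6 weaker divergent peaks (0.681%) and 0.557% of all pooled peaks. The word was picked by its counts in members and weaker divergent peaks, so that contrast is no evidence for it and has no test.

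In sets that did not pick it, the word stood at 26 of 905 one-directional strong peaks (2.87%) and 23 of 6785 one-directional weaker ones (0.339%). It stood at 5 of 1389 strong peaks in no promoter window (0.360%) and at 2 of 437 strong X peaks (0.458%). These sets were looked at together with the choice and were not tested either.

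The word was part of a longer element, shown here at 10 members, read in the direction of the word, with the word in capitals. They were picked for this display after their values were seen.
cux-7/C07H6.2 (chrIII:7520796-7520835, reverse strand): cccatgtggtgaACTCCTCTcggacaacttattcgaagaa
fbxb-85/hex-3 (chrIII:10848975-10849014, reverse strand): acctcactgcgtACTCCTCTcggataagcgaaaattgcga
F01D4.5/ced-5 (chrIV:10483916-10483955, forward strand): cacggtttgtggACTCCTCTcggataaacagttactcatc
lron-10/hpr-9 (chrIII:10621394-10621433, reverse strand): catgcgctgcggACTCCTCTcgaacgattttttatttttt
rict-1/gfm-1 (chrII:13117321-13117360, forward strand): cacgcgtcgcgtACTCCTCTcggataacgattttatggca
F01F1.11/F01F1.3 (chrIII:5871913-5871952, reverse strand): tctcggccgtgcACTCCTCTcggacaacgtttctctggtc
mib-1/smc-3 (chrIII:11290697-11290736, reverse strand): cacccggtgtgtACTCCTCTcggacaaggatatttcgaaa
C14B9.8/mrpl-18 (chrIII:8144743-8144782, reverse strand): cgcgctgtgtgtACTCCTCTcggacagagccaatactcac
gna-1/B0024.13 (chrV:10320369-10320408, forward strand): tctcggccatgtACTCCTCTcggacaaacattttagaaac
mre-11/wdr-5.3 (chrV:10736945-10736984, forward strand): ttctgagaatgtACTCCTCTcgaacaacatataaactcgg

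Over the 22 sites, all had G at 2 bases before the word and A at 4 bases after it. At 4 bases before, 20 of 22 had G, and at 1, 2, 3, 6 and 7 bases after, between 19 and 20 of 22 had the same base, while at 8 bases after the commonest base stood in 8 of 22. The sites lay at a median of 33.5 bp from the summit, 20 of 22 within 50 bp. None of the 22 windows held a 50-base word found elsewhere in the genome, and none lay within 200 bp of a noncoding RNA gene.

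Members with the word were mostly strong. It stood at 16 of 135 stronger members (11.9%) and 6 of 134 weaker ones (4.48%). It stood at 14 of the 97 members in the reproducible set (14.4%), which were those ranked 1 to 430 by pooled signal. The strongest peak of the pooled list, between F56G4.6 and wbp-4, also held it. It stood at 6 of 124 members with a listed gene (4.84%) and 3 of the 18 with the E2F consensus (16.7%). The signal was used in choosing members and, through them, the word.

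The next word with a C or G that shared no 6 bases with the first was CTAGGCCA, also at 22 members (8.18%), against 30 one-directional strong peaks (3.31%), 12 weaker divergent peaks (1.36%) and 1.27% of all pooled peaks. This word came from the same ordering, so its contrast with weaker divergent peaks is no evidence for it and has no test. It lay at a median of 18.5 bp from the summit. Both words stood together at 10 members, among them cux-7 and C07H6.2, lron-10 and hpr-9, rict-1 and gfm-1, and mre-11 and wdr-5.3, and 34 members (12.6%) held at least 1 of them. These joint counts were made in members only, so whether they are particular to members is not known.

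A word recurred among the histone promoters. Of the 9 members beside genes named his, 6 held TGTGTCCC within 100 bp of the summit, and no other member did, against 8 one-directional strong peaks (0.884%) and 0.367% of all pooled peaks. In the windows printed in the report it can be read forward in his-31 and his-32 and, as GGGACACA, in his-60 and his-59. It was also picked after its counts were seen, among related promoters, and was not tested.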
